A study of Mus musculus with 6 samples.

Results

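The 10 genes *Pecam1*, *Cdh5*, *Emcn*, *Tie1*, *Tek*, *Plvap*, *Esam*, *Ramp2*, *Egfl7* and *Eng*, which mark the endothelium of blood vessels, were followed in the colon of mice prone (OP) or resistant (OR) to obesity. They were chosen by gene symbol from the 17778 symbols of the deposited expression table. All 10 were found there, and all 10 were among the 13520 genes with enough expression to be tested. Colon RNA came from 3 OP mice and 3 OR mice, each sequenced as a library of its own. All 6 were male C57BL/6J mice of wild-type genotype that had received a high-fat diet (60% fat) for 16 weeks, and tissue was taken at 21 weeks of age. Of the 42 mice on this diet, the 10 with the greatest weight gain were defined as OP and the 10 with the smallest as OR, so the groups shared diet, strain and age and differed in weight gain. How the sequenced mice were picked from each group of 10 was not given in the sources used here.

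Endothelial cells line the inside of every vessel and decide what passes between blood and tissue. They are held to each other by junction proteins, respond to the surrounding tissue through receptors for angiopoietins, bone morphogenetic proteins and adrenomedullin, and in the mucosal capillaries of the gut carry small pores closed by a diaphragm, through which absorbed solutes enter the blood. Because these genes are expressed mainly in endothelial cells, their level in a piece of whole colon depends on how much endothelium the piece holds. It also depends on how much RNA each endothelial cell makes. Fewer endothelial cells and less RNA per cell cannot be told apart in such bulk samples. Nor can the parts of blood and lymphatic endothelium in these values.

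Levels are given as FPKM, the number of sequenced fragments of a gene scaled by transcript length and by all fragments mapped in that mouse. Read totals are not part of FPKM values, so how deeply each mouse was sequenced is unknown. The FPKM values of a mouse summed to between 585350 and 600028. Over the genes tested, the median FPKM was 7.67 in OP mouse 1 and between 9.46 and 10.7 in the other 5 mice. Epithelium was present in every mouse by 9 epithelial markers, among them *Epcam*, *Krt8* and *Car1*, whose summed FPKM lay between 14320 and 28341. Of these, *Car1* alone went from 1054 to 15723. Genes of other gut regions were not compared, so the colon label itself was not tested. The 10 endothelial genes together reached a sum of 24.7, 22.9 and 44.4 FPKM in OP mice 1, 2 and 3 against 49.8, 59.2 and 79.0 in OR mice 1, 2 and 3.

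To compare the blood endothelium of the 2 phenotypes, each gene was tested with limma-trend, a linear model that shares the estimate of the spread between genes, on the log2(FPKM + 1) scale. Every one of the 10 genes had a lower mean in OP mice than in OR mice. The ratio of mean FPKM, OR over OP, went from 1.46 times (*Egfl7*) to 2.70 times (*Cdh5*), with a median of 2.2 times. Without OP mouse 3 the ratios were higher, from 1.68 times (*Egfl7*) to 4.16 times (*Emcn*), with *Ramp2* at 3.81 times, and without OR mouse 3 they went from 1.25 times (*Egfl7*) to 2.28 times (*Tek*). On the log2(FPKM + 1) scale, which shrinks differences between low values, the log2 fold changes OP/OR lay between -1.13 and -0.45, with a median of -0.83. The median over all genes tested was -0.10, and 70.1% of them had a log2 fold change below 0.

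None of these differences passed the test over the whole table. The thresholds were those of the study, which applied them to DESeq2 on counts, a test not run here. They were a Benjamini-Hochberg adjusted p below 0.2 together with a fold change not under 1.2 (higher) or not over 0.83 (lower). In the direction lower in OP, 0 of the 10 genes were called by limma-trend, against 0.0222% of all genes tested, and the adjusted p of the 10 lay between 0.933 and 0.945. At an unadjusted limma-trend p below 0.05, 9 of the 10 were lower in OP mice, against 3.53% of all genes tested, and 0 were higher, against 0.503%. *Egfl7* was the exception, with an unadjusted value of 0.0981. Without OR mouse 3 the count of lower genes was 1, *Cdh5*, against 1.71% of all genes in the same fit. It was 5 without OP mouse 1 (2.29% of all genes), 5 without OP mouse 2 (4.53%) and 10 without OP mouse 3 (8.17%), so the background moved with the mouse left out. Without OR mouse 1 it was 8 (2.13%) and without OR mouse 2 it was 7 (3.9%). In 6 of the 10 genes the highest OP value lay under the lowest OR value, against 6.81% of all genes tested. For such a gene the two-sided exact permutation test of the mean FPKM gives p = 0.1, the smallest p that the 20 arrangements of 3 mice against 3 allow.

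**Figure D1:**
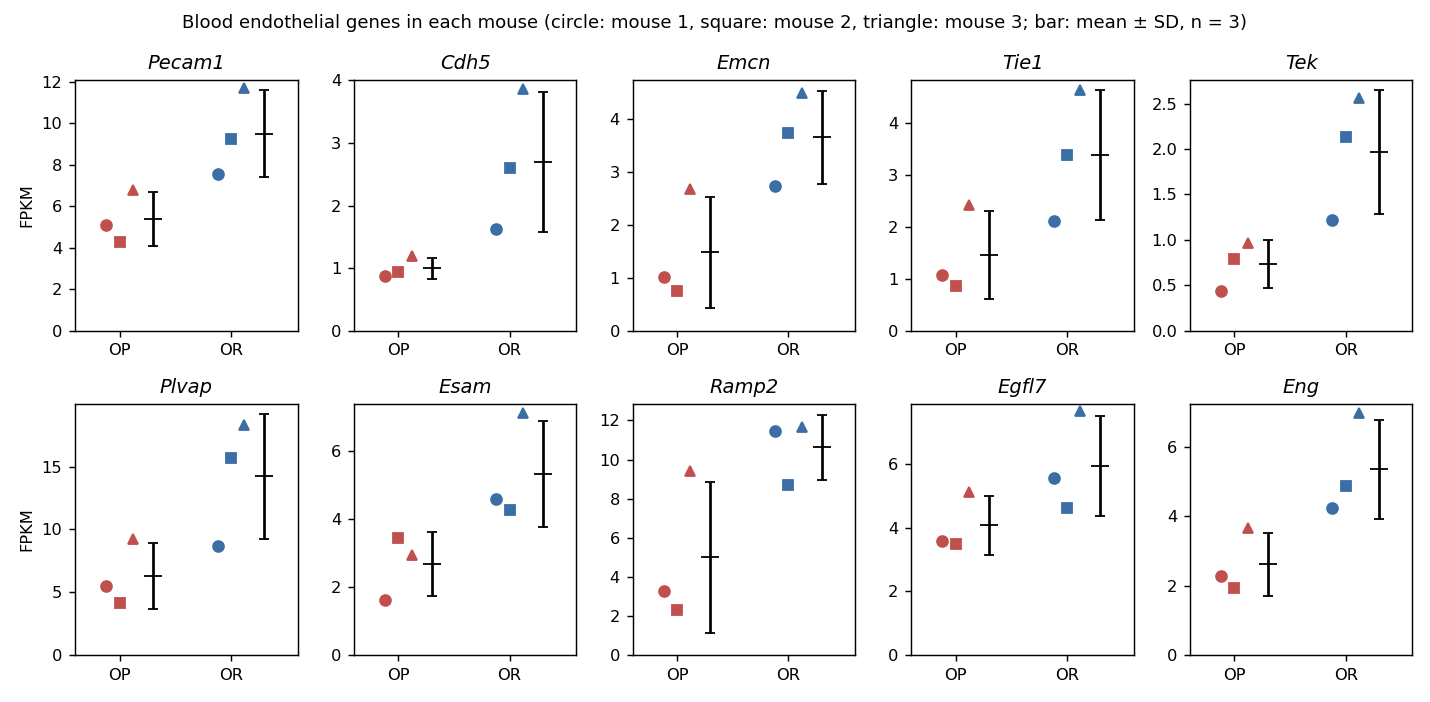
FPKM of each blood endothelial gene (vertical axis, starting at 0, with its own scale in each panel) in the 3 OP mice (red) and the 3 OR mice (blue), with the mean and SD of each group as a black bar. OR mouse 3, the blue triangle, had the highest value in all 10 panels, and the groups overlapped in *Tie1*, *Plvap*, *Ramp2* and *Egfl7*.

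Among the proteins of the cell junctions, *Pecam1* encodes PECAM1 (CD31), an adhesion molecule that binds its like on the neighbouring cell and is also found on platelets and leukocytes. Its FPKM was 5.10, 4.25 and 6.80 in OP mice 1, 2 and 3 against 7.56, 9.24 and 11.7 in OR mice 1, 2 and 3. The groups did not overlap, and the means were 5.38 ± 1.3 (SD, n = 3) for OP and 9.51 ± 2.09 (SD, n = 3) for OR. The log2 fold change of *Pecam1* was -0.72 (standard error, SE, 0.23; unadjusted limma-trend p = 0.0159, exact permutation p = 0.1).

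*Cdh5* encodes VE-cadherin, the adhesion protein of endothelial adherens junctions. It stood at 0.87, 0.94 and 1.19 FPKM in the OP animals against 1.63, 2.6 and 3.86 in the OR animals. The OP mice lay close together and the OR mice were spread over more than the whole OP range, with means of 1.00 ± 0.168 (SD, n = 3) and 2.70 ± 1.12 (SD, n = 3). *Cdh5* had a log2 fold change of -0.84 (SE 0.25) and the lowest unadjusted limma-trend p of the 10 genes, 0.0107.

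*Esam* encodes an immunoglobulin-type adhesion molecule of endothelial tight junctions, also found on platelets. Its FPKM was 1.62, 3.44 and 2.93 in the OP animals against 4.57, 4.26 and 7.09 in the OR animals. The groups did not overlap, and *Esam* was the only one of the 10 genes in which OP mouse 3 was not the highest of its group. Its log2 fold change was -0.79 (SE 0.27, unadjusted limma-trend p = 0.0223, exact permutation p = 0.1). Without OP mouse 1, the lowest in *Esam*, the log2 fold change was -0.57.

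Among the junction partners most values lay closer to 0. The catenins that tie cadherins to the cytoskeleton are made by epithelial cells as well. *Ctnnb1* (beta-catenin) had a mean FPKM of 398 in OP mice and 352 in OR mice, with a log2 fold change of 0.17 (SE 0.15), and *Ctnnd1* (p120-catenin) had 0.11 (SE 0.18). *Cldn5*, which encodes the claudin typical of endothelial tight junctions, stood at 2.66, 2.79 and 4.04 FPKM in the OP animals against 3.76, 4.29 and 6.55 in the OR animals, so the groups overlapped. The log2 fold change of *Cldn5* was -0.48 (SE 0.24), the lowest of the 11 junction partners tested. Of these 11, 6 were lower (70.1% of all genes tested) and 5 higher in OP mice, and the median log2 fold change was -0.07. None reached an unadjusted p below 0.05 (0 of 11), against 3.53% of all genes lower and 0.503% higher.

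*Tie1* and *Tek* (Tie2) encode the Tie receptor tyrosine kinases. TEK binds the angiopoietins, and TIE1 has no ligand of its own among the classical angiopoietins and modulates TEK. *Tie1* stood at 1.07, 0.86 and 2.42 FPKM in the OP animals against 2.12, 3.39 and 4.63 in the OR animals. The value of OP mouse 3 lay above that of OR mouse 1, so the groups overlapped. *Tie1* had a log2 fold change of -0.85 (SE 0.31, unadjusted limma-trend p = 0.0284, exact permutation p = 0.2).

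*Tek* had the lowest level of the 10 genes, with an FPKM of 0.44, 0.79 and 0.97 in the OP animals against 1.22, 2.13 and 2.56 in the OR animals. The groups did not overlap, and the OR mean was 2.69 times the OP mean. On the log2(FPKM + 1) scale the log2 fold change of *Tek* was -0.76 (SE 0.23, unadjusted limma-trend p = 0.0129, exact permutation p = 0.1), and with a pseudocount of 0.1 in place of 1 it was -1.31.

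Among the genes around the Tie receptors, *Ptprb* encodes VE-PTP, the phosphatase that restrains TEK. It stood at 0.61, 0.66 and 0.83 FPKM in the OP animals against 1.16, 1.47 and 1.99 in the OR animals, without overlap, with a log2 fold change of -0.57 (SE 0.18, limma-trend adjusted p = 0.945). *Angpt1*, the activating ligand made by perivascular cells, was at 0.19 to 0.58 FPKM in OP mice and at 0.59 to 1.14 in OR mice, and *Angpt2*, the ligand released by endothelium, was at 0.39 to 1.08 and 0.81 to 0.94. Their log2 fold changes were -0.30 (SE 0.20) and -0.22 (SE 0.20), both with a limma-trend adjusted p of 0.945. *Foxo1*, a transcription factor restrained by TEK signalling and expressed in many cell types, had the highest log2 fold change of this list of 5, 0.17 (SE 0.17). Of the 4 genes of the list that were tested, 1 was lower at an unadjusted p below 0.05 (3.53% of all genes tested) and 0 were called.

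The surface of the capillary was represented by *Plvap* and *Emcn*. *Plvap* encodes the protein that builds the diaphragms of fenestrated capillaries. It stood at 5.51, 4.11 and 9.21 FPKM in the OP animals against 8.69, 15.7 and 18.4 in the OR animals. OP mouse 3 lay above OR mouse 1, so the groups overlapped, with means of 6.28 ± 2.64 (SD, n = 3) and 14.2 ± 4.99 (SD, n = 3). The log2 fold change of *Plvap* was -1.07 (SE 0.34, unadjusted limma-trend p = 0.0160, exact permutation p = 0.2).

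*Emcn* encodes endomucin, a sialomucin of capillary and venous endothelium. Its FPKM was 1.01, 0.75 and 2.69 in the OP animals against 2.73, 3.74 and 4.50 in the OR animals. The groups were separated by 0.04 FPKM, between OP mouse 3 and OR mouse 1, so the absence of overlap rests on a very small gap. *Emcn* had a log2 fold change of -0.97 (SE 0.31, unadjusted limma-trend p = 0.0167, exact permutation p = 0.1).

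*Eng* encodes endoglin, a co-receptor that presents bone morphogenetic proteins to the receptor ALK1. Its FPKM was 2.28, 1.93 and 3.65 in the OP animals against 4.25, 4.86 and 6.97 in the OR animals. The groups did not overlap, with means of 2.62 ± 0.909 (SD, n = 3) and 5.36 ± 1.43 (SD, n = 3), and the log2 fold change was -0.82 (SE 0.26, unadjusted limma-trend p = 0.0141, exact permutation p = 0.1). *Acvrl1*, which encodes ALK1, had 3.37, 3.24 and 5.37 FPKM in the OP animals against 5.98, 5.65 and 6.91 in the OR animals, without overlap, with a log2 fold change of -0.55 (SE 0.22, limma-trend adjusted p = 0.945).

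Further along this pathway the values were closer to 0. *Bmpr2*, the type II receptor, had a log2 fold change of -0.20 (SE 0.19). The target genes *Id1* and *Id3*, which are also expressed in epithelium, had 0.12 (SE 0.21) and 0.11 (SE 0.17). In the list of 13 endoglin and BMP pathway genes tested, 8 were lower and 5 higher in OP mice, and the median log2 fold change was -0.07, which turned to 0.0665 with median-of-ratios scaling. *Tgfbr2* had the lowest log2 fold change, -0.75 (SE 0.35), and *Smad7*, an inhibitor of TGF-beta and BMP signalling, the highest, 0.55 (SE 0.24). At an unadjusted p below 0.05, 2 of the 13 were lower in OP mice, *Acvrl1* and *Tgfbr3*, against 3.53% of all genes tested. Of all genes, 70.1% had a log2 fold change below 0.

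*Ramp2* encodes a small membrane protein that turns the receptor CALCRL into a receptor for adrenomedullin, a peptide that dilates vessels and tightens the endothelial barrier. Its FPKM was 3.26, 2.32 and 9.42 in the OP animals against 11.5, 8.72 and 11.7 in the OR animals. OP mouse 3 was at 3.38 times the mean of the other OP mice and above OR mouse 2, so the groups overlapped. *Ramp2* had the lowest log2 fold change of the 10 genes, -1.13, with the largest SE, 0.41 (unadjusted limma-trend p = 0.0272, exact permutation p = 0.2). Without OP mouse 3 the log2 fold change of *Ramp2* was -1.62, and without OP mouse 2 it was -0.79.

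*Calcrl*, the partner receptor, stood at 0.75, 1.40 and 2.47 FPKM in the OP animals against 2.72, 3.31 and 4.68 in the OR animals, without overlap, with a log2 fold change of -0.88 (SE 0.29, limma-trend adjusted p = 0.945). The ligand gene *Adm* pointed the other way, with 8.57, 4.56 and 2.76 FPKM in the OP animals against 1.47, 3.81 and 3.69 in the OR animals. The groups overlapped, and the log2 fold change of *Adm* was 0.61 (SE 0.40, limma-trend adjusted p = 0.945). The paralogs *Ramp1* and *Ramp3* had -0.69 (SE 0.57) and -0.20 (SE 0.24), and in *Ramp1* OR mouse 3 alone reached 30.2 FPKM against 14.2 or less in the other 5 mice. *Calcb*, which encodes a CGRP peptide that acts on the same receptor, had the highest log2 fold change of the 5 tested genes of this list, 0.65 (SE 0.32). *Calcrl* was the only gene of the 5 with an unadjusted p below 0.05, lower in OP mice (3.53% of all genes tested).

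*Egfl7* encodes a secreted protein that endothelial cells lay down in the matrix around them. Its FPKM was 3.58, 3.48 and 5.13 in the OP animals against 5.56, 4.6 and 7.65 in the OR animals. The groups overlapped, and *Egfl7* had the log2 fold change nearest to 0 of the 10 genes, -0.45 (SE 0.24). It ranged from -0.59 to -0.27 when each mouse was left out in turn. An intron of *Egfl7* also holds the gene of the endothelial microRNA miR-126, which was not analysed here. Its mature 3p strand is shown because it comes from the same locus, with the seed (bases 2 to 8) in capitals, at chr2:26591402-26591423 of GRCm38.p6, plus strand, from RefSeq.
mmu-miR-126a-3p: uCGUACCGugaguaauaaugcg

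Across the mice, the 10 genes varied largely together. Each value was set against the mean of the 6 mice for that gene, on the log2(FPKM + 1) scale. The median of the 10 deviations was -0.62, -0.65 and 0.00 in OP mice 1, 2 and 3 against 0.12, 0.39 and 0.75 in OR mice 1, 2 and 3. OR mouse 3 was the highest of all mice in 10 of 10 genes. OP mouse 2 was the lowest in 7 genes and OP mouse 1 in the other 3. OP mouse 3 was the highest OP mouse in 9 of 10 genes, and OR mouse 1 was the lowest OR mouse in 7. By these medians OP mouse 3 and OR mouse 1 stood next to each other. Without OP mouse 3 the adjusted p of the 10 genes lay between 0.329 and 0.523 by limma-trend, still above 0.2.

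**Figure D2:**
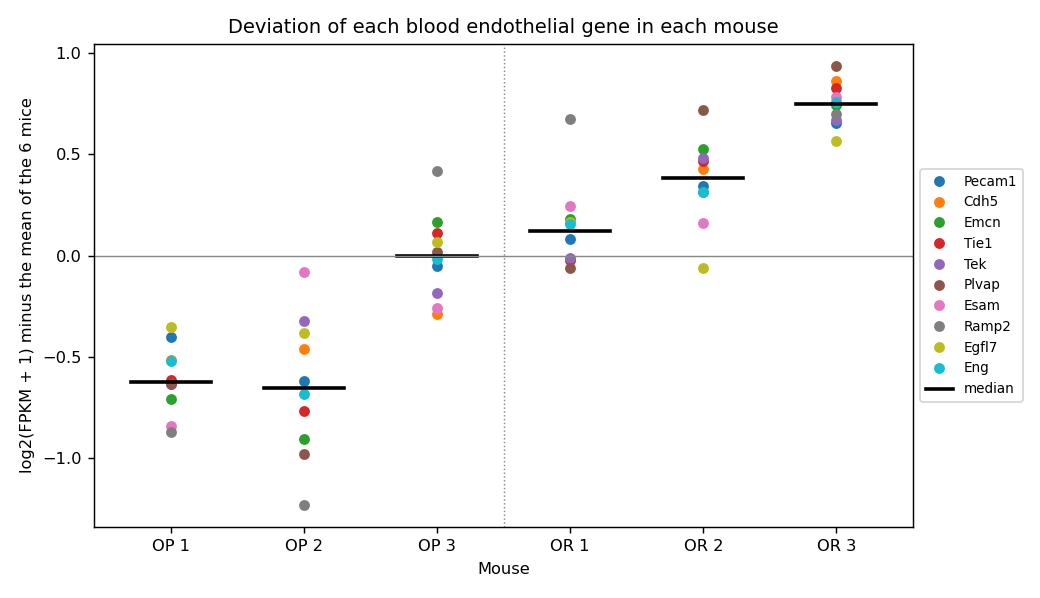
Deviation of each blood endothelial gene (coloured points) from its mean over the 6 mice, on the log2(FPKM + 1) scale (vertical axis), by mouse (horizontal axis), with the median of the 10 genes as a black line. The median ran from -0.65 in OP mouse 2 to 0.75 in OR mouse 3, and OP mouse 3 (0.00) lay next to OR mouse 1 (0.12).

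**Figure D3:**
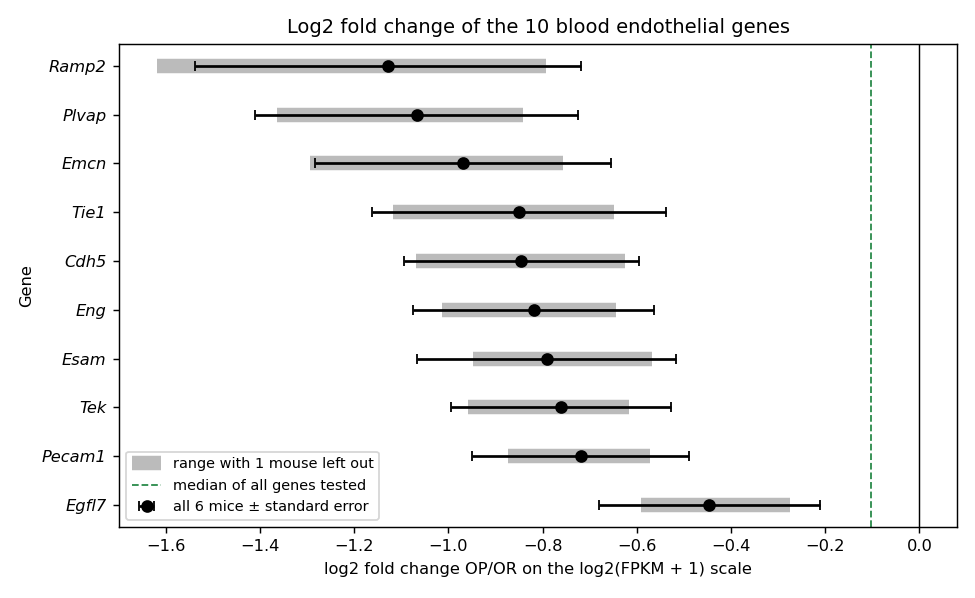
Log2 fold change OP/OR of each blood endothelial gene on the log2(FPKM + 1) scale (horizontal axis), with its standard error from limma-trend over the 6 mice. The grey bar spans the values with 1 mouse left out, and all of these lay below the median of all genes tested (dashed line, -0.10), from -1.62 in *Ramp2* to -0.27 in *Egfl7*.

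By level per transcript length, the order of mean FPKM over the 6 mice was *Plvap* (10.3), *Ramp2* (7.81), *Pecam1* (7.45), *Egfl7* (5.0), *Eng* (3.99), *Esam* (3.99), *Emcn* (2.57), *Tie1* (2.42), *Cdh5* (1.85) and *Tek* (1.35). *Pecam1* was above *Egfl7*, *Esam* above *Emcn* and *Cdh5* above *Tek* in 6 of 6 mice. Other neighbours changed places between mice. *Plvap* was above *Ramp2* in 4 of 6 mice, *Ramp2* above *Pecam1* in 2, *Egfl7* above *Eng* in 5, *Eng* above *Esam* in 3, *Emcn* above *Tie1* in 3 and *Tie1* above *Cdh5* in 5.

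The proportions among the 10 genes were also examined, since a ratio within a mouse does not depend on the scaling between mice. *Eng* made up between 8.21% and 9.22% of the summed FPKM of the 10 genes in each of the 6 mice. *Egfl7* was the only gene whose share did not overlap between the groups, at 14.5%, 15.2% and 11.6% in the OP mice and at 11.2%, 7.77% and 9.68% in the OR mice. The gap between the nearest mice, OP mouse 3 and OR mouse 1, was small, and these shares were not tested. The shares of a mouse add up to the whole. *Egfl7*, with the lowest ratio of means OR over OP (1.46 times), therefore gains share in OP mice in part by arithmetic. It was 1 of 10 shares, and the 20 arrangements of 3 mice against 3 allow no exact permutation p under 0.1. The share of *Ramp2* went from 10.1% in OP mouse 2 to 23.0% in OR mouse 1 (2.27 times), with OP mouse 3 at 21.2%, and that of *Esam* from 6.55% to 15.0% (2.3 times). *Plvap* made up between 17.4% and 26.5%, and its groups overlapped.

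Other genes with a like profile were sought by the root mean square difference, over the 6 mice, between their deviations and the median deviations of the 10 genes. Among the 10 genes themselves this distance ran from 0.0548 to 0.385. These are small in part by construction, since the median was taken from the same 10 genes, and cannot be set against other genes. Over the other 13510 genes tested the median distance was 0.491. The closest was *Podxl*, which encodes a sialomucin of the endothelial surface and of other cells, at 0.0552, with 1.71, 1.40 and 3.07 FPKM in the OP animals against 3.62, 4.28 and 5.67 in the OR animals. It was followed by *C1ra* (0.0655) and *C1s1* (0.0723), which encode complement proteases, *Tmem204* (0.0761), *Lrrc32* (0.0873), *Cp* (0.118), *Pltp* (0.122), the collagen gene *Col1a2* (0.124), *Fcrls* (0.128) and the interleukin-1 receptor gene *Il1r1* (0.130). Of these 10 nearest genes, 0 were in an endothelial list used here, and *Col1a2* was in the fibroblast list. The likeness is a description over 6 mice, in which differences between libraries are shared by all genes.

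The wider set of blood endothelial genes was examined with 22 further genes. All 22 were tested, and the median log2 fold change was -0.60. A lower mean log2 value in OP mice was found for 21, against 70.1% of all genes tested. By limma-trend 0 of them were called. At an unadjusted p below 0.05, 12 were lower in OP mice, against 3.53% of all genes. In 13 of the 22 the groups did not overlap, with OP lower, against 6.81% of all genes. *Cd34*, a sialomucin of endothelium that fibroblasts and progenitor cells carry too, had the lowest log2 fold change, -1.55 (SE 0.33, adjusted p = 0.693), with 2.76, 1.87 and 4.90 FPKM in the OP animals against 8.47, 9.46 and 15.3 in the OR animals. *Clec14a*, an endothelial lectin-type receptor, had the highest, 0.22 (SE 0.35), with 2.77, 8.64 and 6.56 FPKM in the OP animals against 5.50, 4.23 and 4.15 in the OR animals, and was the only one of the 22 above 0. The median of the list was -0.48 to -0.67 with each mouse left out and remained below 0 with median-of-ratios and TPM scaling.

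Of 20 transcription factors known for endothelial genes, 16 were tested. The remaining 4, *Sox7*, *Tal1*, *Foxc1* and *Foxc2*, were below the filter on low values. Of the 16, 14 were lower in OP mice (70.1% of all genes tested), and the median log2 fold change was -0.32 (-0.53 without OP mouse 3). At an unadjusted p below 0.05, 3 were lower, against 3.53% of all genes, and 0 were called. *Klf2*, the factor induced by blood flow and also expressed in lymphocytes, had the lowest log2 fold change, -1.10 (SE 0.32, limma-trend adjusted p = 0.929), with 3.91, 6.60 and 7.85 FPKM in the OP animals against 16.5, 9.02 and 17.6 in the OR animals. *Klf4*, which colon epithelium expresses strongly, had the highest, 0.27 (SE 0.32).

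ETS factors such as ERG are known regulators of endothelial genes. The stretch before the transcription start was therefore searched for the letters AGGAAG, an ETS-type site, on both strands (the reverse reads CTTCCT). RefSeq windows of GRCm38.p6 were at hand for 5 of the 10 genes, *Tie1*, *Tek*, *Emcn*, *Eng* and *Egfl7*, and not for *Pecam1*, *Cdh5*, *Plvap*, *Esam* and *Ramp2*. The 250 bases before each start are given 5′ to 3′ on the strand of the gene, with the ETS-type letters in capitals, and of the 3 windows of *Egfl7* the one listed first is shown.
*Tie1* chr4:118489850-118490099, minus strand: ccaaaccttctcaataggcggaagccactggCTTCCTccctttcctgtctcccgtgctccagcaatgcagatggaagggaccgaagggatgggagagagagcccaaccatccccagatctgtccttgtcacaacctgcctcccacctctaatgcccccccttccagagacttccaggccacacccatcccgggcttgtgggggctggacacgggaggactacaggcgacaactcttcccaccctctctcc
*Tek* chr4:94739039-94739288, plus strand: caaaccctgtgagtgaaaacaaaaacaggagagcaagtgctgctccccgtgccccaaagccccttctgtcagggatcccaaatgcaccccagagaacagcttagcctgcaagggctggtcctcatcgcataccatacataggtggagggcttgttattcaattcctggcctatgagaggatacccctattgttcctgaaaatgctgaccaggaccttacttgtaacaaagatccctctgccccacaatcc
*Emcn* chr3:137340828-137341077, plus strand: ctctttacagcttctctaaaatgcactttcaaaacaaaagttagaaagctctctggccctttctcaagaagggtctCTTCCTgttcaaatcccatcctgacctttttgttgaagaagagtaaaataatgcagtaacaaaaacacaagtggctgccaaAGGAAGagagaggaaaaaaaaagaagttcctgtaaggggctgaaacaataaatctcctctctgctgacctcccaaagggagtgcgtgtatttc
*Eng* chr2:32646345-32646594, plus strand: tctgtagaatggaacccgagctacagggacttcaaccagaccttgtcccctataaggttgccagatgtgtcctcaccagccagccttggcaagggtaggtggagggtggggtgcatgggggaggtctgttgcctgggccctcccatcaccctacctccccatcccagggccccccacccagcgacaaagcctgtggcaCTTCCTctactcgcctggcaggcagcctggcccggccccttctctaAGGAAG
*Egfl7* chr2:26580833-26581082, plus strand: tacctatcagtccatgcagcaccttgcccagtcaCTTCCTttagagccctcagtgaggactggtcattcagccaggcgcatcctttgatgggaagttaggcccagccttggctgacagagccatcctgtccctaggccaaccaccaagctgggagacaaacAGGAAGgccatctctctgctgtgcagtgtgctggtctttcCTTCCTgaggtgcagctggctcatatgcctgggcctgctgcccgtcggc

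The letters were found in 5 of the 7 windows of these genes, and in 29.5% of the 32851 promoter windows of the same length in the table. *Eng* had 2 matches, beginning 52 and 6 bases before the start, and *Emcn* had 2, at 174 and 93 bases. *Tie1* had a match at 219 bases and *Tek* had none. *Egfl7* had 3 matches in the window shown, 1 in another of its windows and 0 in the remaining window. A GATA-type site, spelled AGATAA, was in 0 of the 7 windows and in 9.99% of all windows, on either strand. For a SOX-type site, with the letters ACAATG, the same count was 0 and the share of all windows 10.7%. The core of the TATA box, read as TATAAA, was likewise in 0 of the 7 and in 12.4% of all windows. No ETS-type match in these windows therefore overlapped another motif searched. A match describes the letters in the window and was not tested for binding.

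Genes of other cell types were followed in the same mice. Red blood cell genes had lower values in OP mice too. All 4 tested, the haemoglobin genes *Hba-a1*, *Hba-a2*, *Hbb-bs* and *Hbb-bt*, had an unadjusted p below 0.05, against 3.53% of all genes tested. By limma-trend 0 of them were called, and their median log2 fold change was -1.27. *Hbb-bs* had 10.2, 7.44 and 11.2 FPKM in the OP animals against 19.0, 41.5 and 26.6 in the OR animals, without overlap. Reads of these near-identical copies may be divided between them, so the single values are uncertain and the 4 are not separate observations. The sum of the list was 23.6 to 39.8 in OP mice and 54.8 to 125 in OR mice. The defining red cell genes *Alas2* and *Slc4a1* were at or below 0.48 FPKM in every mouse. Of the 2 platelet genes tested (median -0.83), *Pf4*, which macrophages can express too, had -1.76 (SE 0.31), while *Itga2b* had 0.10 (SE 0.21) and *Gp9*, *Gp1ba*, *Gp5* and *Treml1* were at or below 0.17 FPKM. The part of blood cells in the endothelial values was not tested.

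Genes of the cells next to the vessels also had lower values in OP mice, with 0 called by limma-trend in each list. Of all genes tested, 70.1% were lower, 3.53% with an unadjusted p below 0.05. Of 8 fibroblast genes, 8 were lower, 5 with an unadjusted p below 0.05, with -0.90 as the median log2 fold change and a summed FPKM of 79.8 to 148 in OP mice and 213 to 466 in OR mice. *Dcn* had the lowest log2 fold change of these, -2.03, and *Pdgfra* the one nearest to 0, -0.59. Of 8 mural genes (pericytes and vascular smooth muscle), 8 were lower, 2 with an unadjusted p below 0.05, with a median of -0.37 and sums of 77.2 to 89.5 in OP mice and 104 to 159 in OR mice. *Kcnj8* had -0.66 and *Ndufa4l2* -0.18. Of 6 lymphatic endothelial genes, 6 were lower, 5 with an unadjusted p below 0.05, with a median of -1.10 and sums of 22.1 to 41.2 and 42.4 to 116, from *Lyve1* (-1.50) to *Prox1* (-0.38). The sums of these lists did not overlap between the groups, nor did that of the 10 blood endothelial genes. Such sums weigh the highest genes of a list most. In the lymphatic list the gap was small, 41.2 in OP mouse 3 against 42.4 in OR mouse 1. Its highest gene, *Ccl21a*, overlapped, at 31.3 and 30.6 FPKM in these 2 mice. The part of these cell types, lymphatic endothelium among them, in the values of the 10 genes was not tested.

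In the lists of smooth muscle, epithelium, leukocytes, adipocytes, enteric neurons and glia, and mesothelium, the summed FPKM of the groups overlapped. The shares of all genes tested were again 70.1% lower, 3.53% with an unadjusted p below 0.05. Of 7 smooth muscle genes, 7 were lower in OP mice, 0 with an unadjusted p below 0.05, with a median of -0.33, from *Acta2* (-0.50) to *Synm* (-0.04), and without OR mouse 1 the median was 0.00214. Of 9 epithelial genes, 3 were lower and 6 higher, with a median of 0.02, from *Car1* (-0.94) to *Krt20* (0.44). Of 8 leukocyte genes, 7 were lower, 3 with an unadjusted p below 0.05, with a median of -0.51, from *Adgre1* (-0.88) to *Cd79a* (0.96). OP mouse 3, the OP mouse with the highest endothelial values, had a leukocyte sum of 122 FPKM against 29.4 to 67.6 in the other 5 mice, and *Cd79a*, a B cell gene, stood at 39.8 there. Of 6 adipocyte genes, 5 were lower, 1 with an unadjusted p below 0.05, with a median of -0.95, from *Cfd* (-2.89) to *Lep* (0.62), and *Adipoq*, *Plin1*, *Lep*, *Retn* and *Cfd* were listed at 0 in OP mouse 2. The neuron and glia genes had a median of -0.11 (6 tested, 3 lower), with *Elavl4* (0.14) the highest, and the mesothelial genes one of -0.33 (3 tested, 2 lower), from *Krt7* (-0.46) to *Msln* (0.14). The part of these cell types in the endothelial values was not tested.

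**Figure D4:**
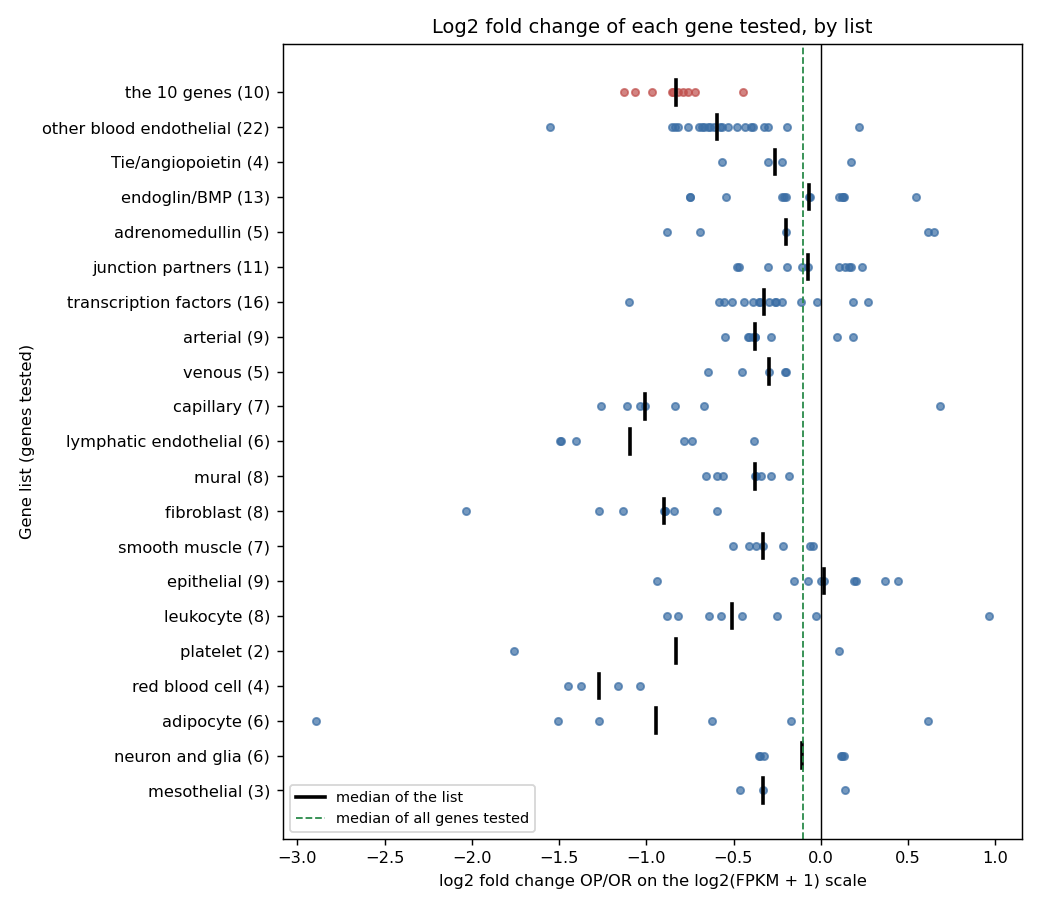
Log2 fold change OP/OR on the log2(FPKM + 1) scale (horizontal axis) of each gene tested in each gene list (rows, with the number of genes tested), with the median of the list as a black bar. The 10 blood endothelial genes (red) had a median of -0.83, the fibroblast genes -0.90, the lymphatic endothelial genes -1.10 and the epithelial genes 0.02, and the dashed line marks the median of all genes tested, -0.10.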

How the data were processed

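Colon RNA of 3 OP and 3 OR mice was measured. The deposited values are FPKM, which the authors obtained by filtering the reads with SOAPnuke, mapping them to mouse reference genes (Bowtie2) and quantifying with RSEM. The labels give Bowtie2 2.2.5 and RSEM 1.2.12, the methods give other versions, and the submitters' processing notes also name HISAT2 2.0.4 and GRCm39. FPKM values, rounded to 2 decimals, hold no read totals, so depth and counting error are unknown, and count tests were not applicable. Each column was matched to its mouse by the group and number in the labels.

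The 13520 genes that reached 0.5 FPKM in 3 or more mice entered the test. OP and OR mice were compared on log2(FPKM + 1) by limma-trend with no covariate, using limma 3.58.1 under R 4.3.3, and p-values were adjusted by Benjamini-Hochberg over the 13520 genes. The planned thresholds were those of the study, whose own test, DESeq2 on counts, was not run. Exact permutation tests were made with SciPy 1.17.1. The code was tested on simulated data with known changes.

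The members and the gene lists were chosen with earlier results of these data known, so counts over them are descriptions, and no test over a list was made. The genes named are the 10, their ligands, receptor partners and paralogs, the lowest and highest gene of each list (1 of these is not reported here), and the 10 genes with the most like profile. Genes in more than 1 list (*Ptprb*, *Cldn5*, *Icam2*, *Vwf*, *Sox17*, *Gpihbp1*) counted under each. Other genes were named after their values were seen. *Gdf2*, *Bmp10* and *Ppbp* were on the lists and were not analysed here. Alternatives were limma without trend and with robust variance, median-of-ratios and TPM scaling, pseudocounts of 0.1 and 0.01, filters, weighted samples, a block by replicate number and each mouse left out.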

Additional observations from a re-analysis of the deposited data

How the results depend on the processing

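The log2 fold changes of the 10 genes remained below 0 in each fit that tested them, and 0 of the 10 were called under any alternative run, with adjusted p between 0.329 and 1.00. Their median was -0.83, and -1.21 and -1.24 with pseudocounts of 0.1 and 0.01. It was -0.74 with median-of-ratios scaling, which moved the median of all genes from -0.10 to 0.00865, so that relative to all genes it was -0.73 and -0.75, and it ranged from -1.01 to -0.63 with each mouse left out. Where every mouse had to reach 1 FPKM, 6 of the 10 could be tested and 6 were lower. Of these, 5 had an unadjusted limma-trend p below 0.05, beside 317 genes lower over the whole table in the same fit. The count at an unadjusted p below 0.05, 9 with all mice, ranged from 1 (without OR replicate 3) to 10 (without OP replicate 3) with each mouse left out, while the count over all genes tested ranged from 231 to 1104 without the same mice.

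With DESeq2 on counts and the same thresholds, the study reported more genes in both directions than limma-trend called here. Over the whole table, 3 genes were called lower in OP mice. The count was 0 with robust variance, 0 with median-of-ratios scaling, 0 with TPM scaling, 0 with pseudocounts of 0.1 and 0.01, 0 with no filter, 0 with at least 1 in all 6 mice, 2 without the trend, 5 with sample weights and 0 to 1 with each mouse left out. The cause was not tested. At an unadjusted p below 0.05, 477 genes were lower and 68 higher, so 12.5% were higher, and with median-of-ratios scaling 421 and 159, 27.4%. With each mouse left out the lower count ranged from 231 to 1104 and the higher count from 24 (without OR replicate 3) to 181 (without OP replicate 3). The paired fit with the replicate block called 0 genes lower. At an unadjusted p below 0.05 it had 9 of the 10 lower, beside 409 genes over the whole table. The adjusted p of the 10 lay between 0.860 and 0.999 in this fit. Over all genes tested the numbers showed no pairing of the mice. Deviations of same-numbered mice correlated at -0.144, -0.157 and 0.0709, with a mean of -0.0765, against a mean of 0.0394 for other numbers. Among the 10 genes, mouse 3 was the highest of its group in 9 for OP and in 10 for OR.

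Medians of gene lists near 0 changed sign. With median-of-ratios scaling the endoglin and BMP list was at 0.0665 and the junction partners at 0.0562. With each mouse left out the ranges that crossed 0 were -0.26 to 0.0264 for the endoglin and BMP list, -0.37 to 0.0250 for the adrenomedullin list, -0.13 to 0.0454 for the junction partners, -0.50 to 0.00214 for smooth muscle, -0.0420 to 0.18 for epithelium, -0.33 to 0.103 for neurons and glia and -0.68 to 0.123 for mesothelium. Leaving out a mouse also moved the endothelial transcription factor (-0.53 without OP replicate 3) and venous (-0.49 without OP replicate 3) medians. The Tie and angiopoietin median ranged from -0.39 to -0.15, that of leukocytes from -0.86 to -0.16 and that of adipocytes from -1.50 to -0.30. For capillary genes the range was -1.35 to -0.58 and for red blood cell genes -1.53 to -0.91. Since depth is unknown, the counting error of values near 1 FPKM, as for *Tek* and *Cdh5*, could not be given.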

Other observations

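Genes of arteries, veins and capillaries, which the 10 genes do not separate, were at hand as 3 short lists. Of all genes tested, 70.1% were lower in OP mice, 3.53% with an unadjusted limma-trend p below 0.05. Of 9 arterial genes tested, 7 were lower in OP mice, 1 with an unadjusted limma-trend p below 0.05, with a median log2 fold change of -0.38. *Sema3g*, a semaphorin of arterial endothelium, had the lowest, -0.55 (SE 0.26), and *Bmx*, a kinase of arterial endothelium, the highest, 0.18 (SE 0.29). Of 5 venous genes tested, 5 were lower, 1 with an unadjusted p below 0.05, with a median of -0.30 (-0.49 without OP mouse 3), from *Vwf* (-0.65) to *Nr2f2* (-0.20), and *Selp* and *Sele* were below the filter on low values. Of 7 capillary genes tested, 6 were lower, 3 with an unadjusted p below 0.05, with a median of -1.01, which was -0.58 without OP mouse 1.

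*Cd36*, a fatty acid carrier of capillary endothelium and adipocytes, had the lowest log2 fold change of the capillary list, -1.26 (SE 0.39), with 5.94, 1.90 and 7.45 FPKM in the OP animals against 14.4, 10.2 and 12.5 in the OR animals, without overlap. *Car4*, which colon epithelium also expresses strongly, had the highest, 0.68 (SE 0.38), with 372, 808 and 390 FPKM in the OP animals against 486, 255 and 228 in the OR animals. *Gpihbp1*, which anchors lipoprotein lipase on capillary endothelium, had 0.75, 1.26 and 2.81 FPKM in the OP animals against 3.61, 2.94 and 3.69 in the OR animals, without overlap. By limma-trend 0 genes of the 3 lists were called. Differences between the 3 lists were not tested.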
